A study of Rattus norvegicus with 14 samples.

Results

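Plantaris muscle of rats returned to dietary vitamin D after a period without it was compared with plantaris of rats left on the vitamin D depletion diet. The arrays were chosen by sample title, which gave 4 repletion arrays and 6 depletion arrays, 10 of the 14 arrays in the series. All rats were Wistar. The plantaris is an ankle extensor (plantarflexor) of the calf made mostly of fast fibres. Repletion rats had been fed the depletion diet and then a diet with vitamin D again, so a period of depletion was common to both groups. Depletion rats stayed on the depletion diet. A further group of 4 arrays came from rats on the control diet, which held 1000 UI of vitamin D per kg, and served here to estimate slide effects and as side values. The sources used here state neither the vitamin D content of the other diets, nor the length of feeding, nor the age and sex of the rats. The time of tissue collection is not stated either. Total RNA of each muscle was labelled with Cy3 and hybridised to 1 Agilent rat array, and each array is labelled as a separate biological replicate. No label names the animal.

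The title and the diet field of depletion replicate 1 contradict each other: the title gives depletion and the diet field gives depletion and repletion. It was kept as depletion by title, and results are given without it where that matters. The 14 arrays lay on 5 slides. Slide 1 held repletion 1 and depletion 1 with 2 control arrays, slide 2 held repletion 2 and depletion 2 with 1 control array, slide 3 held repletion 3 with depletion 3 and 4, slide 4 held depletion 5 with 1 control array, and slide 5 held repletion 4 and depletion 6. The diets could therefore be compared within 4 slides. A level below is the log2 processed signal of a probe relative to the 75th percentile of its array, and a difference is repletion minus depletion on that log2 scale, so a positive value is higher under repletion. The difference comes from a linear model of all 14 arrays with slide as a block, and the within-slide value is the plain difference between repletion and mean depletion arrays of 1 slide. The fitted value can lie away from the mean of the within-slide values. This is because slide 3 holds 2 depletion arrays and because the control arrays also enter the slide terms.

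Vitamin D is hydroxylated in the liver and then in the kidney to calcitriol, the ligand of the vitamin D receptor. The receptor pairs with a retinoid X receptor, binds DNA and recruits coactivators or corepressors, and one of its best known targets is Cyp24a1, the enzyme that inactivates calcitriol. Adult muscle fibres hold little of the receptor. Lack of vitamin D is associated with muscle weakness and with loss of fast fibre size.

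Slide accounted for most of the variation between arrays. Principal component 1 carried 39.1% of the variance, and slide explained a share of 0.996 of that component, against 0.017 for diet. Component 2 carried 18.7%, with shares of 0.962 for slide and 0.113 for diet. Depletion 1 stood apart on the third component, which held 8.87%, and received the lowest weight of the 14 arrays, 0.366, when weights were estimated. The share of spots well above background ran from 82.8% to 88.1% over arrays, and no spot was saturated. The defining myosins of fast muscle, Myh1, Myh2 and Myh4, were above background on all 10 arrays.

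**Figure D1:**
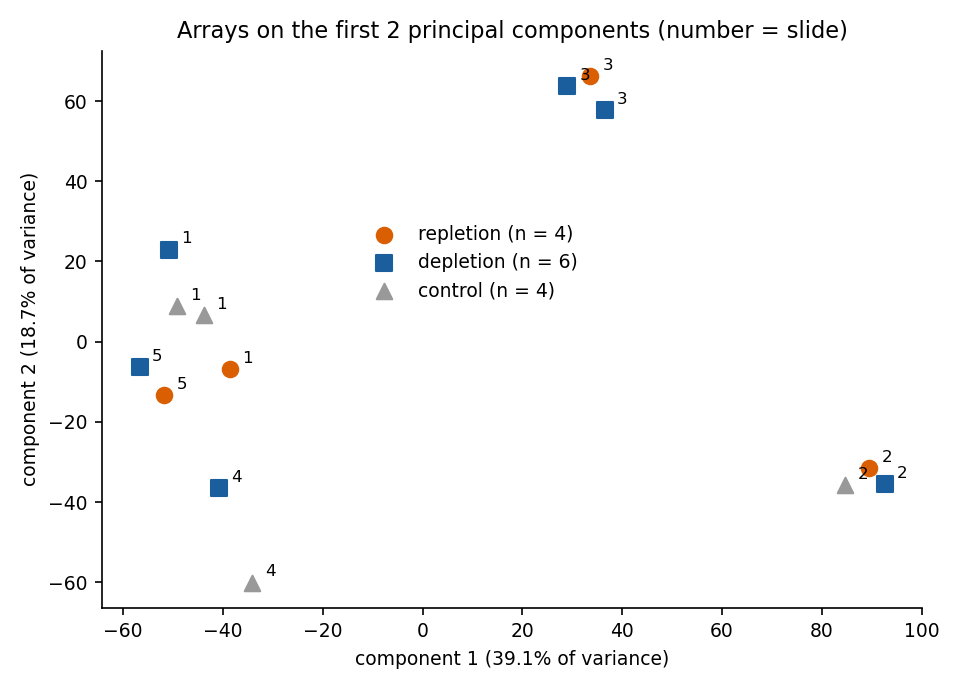
Each point is 1 array, placed by principal component 1 (39.1% of variance, horizontal) and component 2 (18.7%, vertical), with its slide number beside it. Orange circles are repletion (n = 4), blue squares depletion (n = 6) and grey triangles control arrays (n = 4). Arrays lie by slide, and both diets lie close together on slides 2 and 3.

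The probes behind the genes that the results turn on are shown by the first 30 bases of each 60-base probe, 5′ to 3′, all in lower case with no base marked. Birc6 and Trit1 are shown because their groups did not overlap in the higher direction, Tppp2 because its groups did not overlap in the lower direction, and Ppp1r3d, Cks2 and Ier5 because they are among the genes with the smallest p. Vdr is shown as the receptor itself. The scanner files place the probes on rn4, and the exon or UTR status of the probes was not used here.
Birc6: cttaaggagatccagtttaattcaaggtga
Ppp1r3d: ttactgcctgtcatttaaagtcattttact
Trit1: agataccatacagtgaaactgagaacaaga
Tppp2: ggaaaaggtatcgaaggacgggaagagacc
Cks2: gcaacagagctcggttaaatgcaactgcaa
Ier5: ggggagctgataaggtttttgtacagtatt
Vdr: ggggctcactcactgccaagatgaccaaat
The Birc6 probe maps to chr6:20655096-20655155 on the minus strand and the Ppp1r3d probe to chr3:167505698-167505756 on the minus strand. The Trit1 probe maps to chr5:142371866-142371925 on the plus strand and the Tppp2 probe to chr15:27354011-27354070 on the plus strand. The Cks2 probe maps to chr17:19423579-19423638, the Ier5 probe to chr13:70058869-70058928 and the Vdr probe to chr7:136567655-136567714, all on the minus strand.

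No probe passed the test between repletion and depletion. With limma's moderated test and Benjamini-Hochberg adjustment, 0 of 26387 probes (0%) had an adjusted p under 0.05, and the lowest adjusted p was 0.933. Without adjustment, 662 probes (2.51%) were higher and 255 (0.966%) lower at p under 0.05, 917 in all (3.48%). Counting 1 probe per gene, 437 of 17432 genes (2.51%) were higher and 162 (0.929%) lower at that unadjusted level, 599 in all (3.44%). Differences over genes had a median of 0.03 and an SD of 0.26, the median standard error of a difference was 0.16, and 124 genes differed by more than 1. The count of 0 held in all 28 alternative fits, whose lowest adjusted p ran from 0.737 to 1.0. The excess of higher over lower genes depended on the scaling: 72.2% of the unadjusted probes were higher here, against 50.8% with the authors' values, 50.8% with normexp background correction, 54.9% with quantile normalization and 62.4% with median centring. Genes with a fitted difference above 0 made up 58.6% of all genes here and 51.2% with the authors' values.

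The within-slide differences of the 17432 genes bore little relation to each other. Spearman's rho over genes between the 6 pairs of slides ran from -0.13 to 0.11, values that describe genes of arrays that share no slide. Of all genes, 6.56% were higher and 3.01% lower under repletion within all 4 slides. In the fit 58.6% of all genes were higher and 41.4% lower. The median over all genes was 0.11, 0.01, -0.02 and 0.04 within slides 1, 2, 3 and 5. Counts and medians of the gene lists below are to be read beside these values. Every repletion array lay above every depletion array for 41 genes (0.235%) and below for 15 genes (0.086%).

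Among genes higher under repletion, Birc6, Ppp1r3d and Trit1 had the smallest p values. Birc6 encodes a very large ubiquitin-conjugating inhibitor of apoptosis. Its levels were -1.85, -2.0, -1.88 and -1.99 under repletion, against a lowest of -3.44, a median of -2.70 and a highest of -2.18 under depletion. The groups did not overlap. The difference was 0.82 ± 0.15 (SE; limma unadjusted p = 0.000326, adjusted p = 0.933). It was 0.33, 0.71, 0.76 and 1.45 within slides 1, 2, 3 and 5, and 0.92 without depletion 1. Control arrays averaged -1.94 ± 0.10 (SD, n = 4), close to the repletion levels. Depletion minus control was -0.65 ± 0.16 (SE) and repletion minus control 0.17 ± 0.18 (SE), 2 values that share the control arrays.

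Trit1, which attaches the isopentenyl group to an adenosine of some transfer RNAs, was likewise higher under repletion than under depletion. Its levels were -1.36, -1.57, -1.49 and -1.81 under repletion, against -2.43, -2.11 and -1.88 (lowest, median, highest) under depletion. The groups did not overlap, and the control mean was -1.44 ± 0.13 (SD, n = 4). The difference was 0.50 ± 0.10 (SE; limma unadjusted p = 0.000604) and 0.52, 0.32, 0.62 and 0.37 within slides 1, 2, 3 and 5. Birc6 and Trit1 each had 1 probe on the array that passed the filter.

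Ppp1r3d, a subunit that targets protein phosphatase 1 to glycogen, was measured at -1.12, -1.03, -1.18 and -1.08 under repletion. Depletion arrays ran from -1.58 to -1.13 with a median of -1.52, and only depletion 5 reached into the repletion range. The difference was 0.42 ± 0.08 (SE; limma unadjusted p = 0.000455), and the 4 within-slide values lay between 0.37 and 0.46. A dimmer probe of the gene gave 0.13. Control levels were -1.45 in 2 arrays and -1.46 in another, and -0.94 in control 4, so that control arrays 1 to 3 lay with the depletion arrays. Control 4 and depletion 5 share slide 4, which holds no repletion array.

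Nfic, a transcription factor of the nuclear factor I family, had levels of -0.85, -0.88, -1.43 and -1.14 under repletion and -2.34, -1.82 and -1.19 (lowest, median, highest) under depletion. The groups overlapped across slides but not within a slide: the differences were 0.33, 0.44, 0.64 and 0.82 within slides 1, 2, 3 and 5. The fitted difference was 0.60 ± 0.14 (SE; limma unadjusted p = 0.00178). Nr1d2 encodes REV-ERB beta, a repressor in the circadian clock. Its levels of -3.40, -3.24, -3.52 and -3.37 under repletion met the depletion range of -4.07 to -3.42 (median -3.90) only at depletion 2. Its difference was 0.48 ± 0.11 (SE; limma unadjusted p = 0.0019). The zinc finger gene Zfp385d differed by 0.55 ± 0.13 (SE) and by 0.35 with the authors' values. Its repletion levels of -2.815 to -1.93 all lay inside the depletion range of -3.85 to -1.85. Within slides 1, 2, 3 and 5 its difference was 0.69, 0.25, 0.99 and 0.17.

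The other 4 of the 10 genes with the smallest p in the higher direction were dim. Esrrb, an orphan nuclear receptor related to the oestrogen receptors, differed by 0.88 ± 0.18 (SE) and was above background on 3 of 4 repletion and 4 of 6 depletion arrays. Normexp correction gave 0.20 for it. Il21, a T cell cytokine, differed by 0.95 and by 0.08 with normexp, with 2 of 4 repletion and 1 of 6 depletion arrays above background. St8sia1, which makes the ganglioside GD3, differed by 0.79 and by 0.14 with normexp, with 4 of 4 repletion and 2 of 6 depletion arrays above background. Btnl3, of the butyrophilin family, differed by 0.83 and by 0.06 with normexp, with 2 of 4 repletion and 1 of 6 depletion arrays above background.

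Of the 10 genes lower under repletion with the smallest p, Tppp2 had the largest difference. It belongs to the tubulin polymerization-promoting protein family. Its levels were -1.77, -2.13, -2.32 and -2.10 under repletion, against -1.34, -0.31 and 0.34 (lowest, median, highest) under depletion. The groups did not overlap. The difference was -1.73 ± 0.41 (SE; limma unadjusted p = 0.0019, adjusted p = 0.933) and -1.44, -1.83, -1.82 and -1.26 within slides 1, 2, 3 and 5. Control arrays ranged from -1.74 to -0.40, all above the highest repletion level and partly inside the depletion range. Depletion minus control was 0.92 ± 0.44 (SE) and repletion minus control -0.81 ± 0.49 (SE).

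Cks2, a small subunit that binds cyclin-dependent kinases, was measured at -3.94, -3.81, -4.30 and -4.56 under repletion and at -3.83, -3.16 and -2.42 (lowest, median, highest) under depletion. The ranges touched only at repletion 2 and depletion 2, both on slide 2. The difference was -1.16 ± 0.28 (SE; limma unadjusted p = 0.00205). Within slides 1, 3 and 5 it was -1.52, -1.05 and -2.01, and within slide 2 it was 0.01. Ier5, an immediate early response gene, had levels of 1.93, 1.98, 1.80 and 2.65 under repletion and 2.40, 2.73 and 3.35 (lowest, median, highest) under depletion. Its ranges overlapped through repletion 4, and within slides 1, 2, 3 and 5 the differences were -0.79, -0.42, -1.0 and -0.70. The fitted difference was -0.79 ± 0.21 (SE; limma unadjusted p = 0.00416), and a second probe gave -0.63.

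The remaining genes lower under repletion had smaller or dimmer signals. Xpo6, an exportin that carries actin out of the nucleus, differed by -0.39 ± 0.11 (SE), with -0.27 at a second probe. Klk1c12 belongs to the rat kallikrein family of near-identical copies, so its probe may read relatives too. It differed by -0.82 ± 0.20 (SE), by -0.34 with normexp and by -0.29 with the authors' values. Gpat2, a mitochondrial acyltransferase, was not well above background on any repletion array, and 3 of 6 depletion arrays measured it. Its fitted difference of -0.95 was -0.20 with normexp and -0.14 with the authors' values. Calca, the gene of calcitonin and the neuropeptide CGRP, differed by -1.27 ± 0.33 (SE), but by -0.46 at a second probe and by -0.26 with normexp. Only 1 of 4 repletion and 4 of 6 depletion arrays showed Calca above background. Lrp12, Foxe3 and Dnah1 differed by -0.44, -0.60 and -0.77 and by -0.24, -0.13 and -0.28 with normexp.

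**Figure D2:**
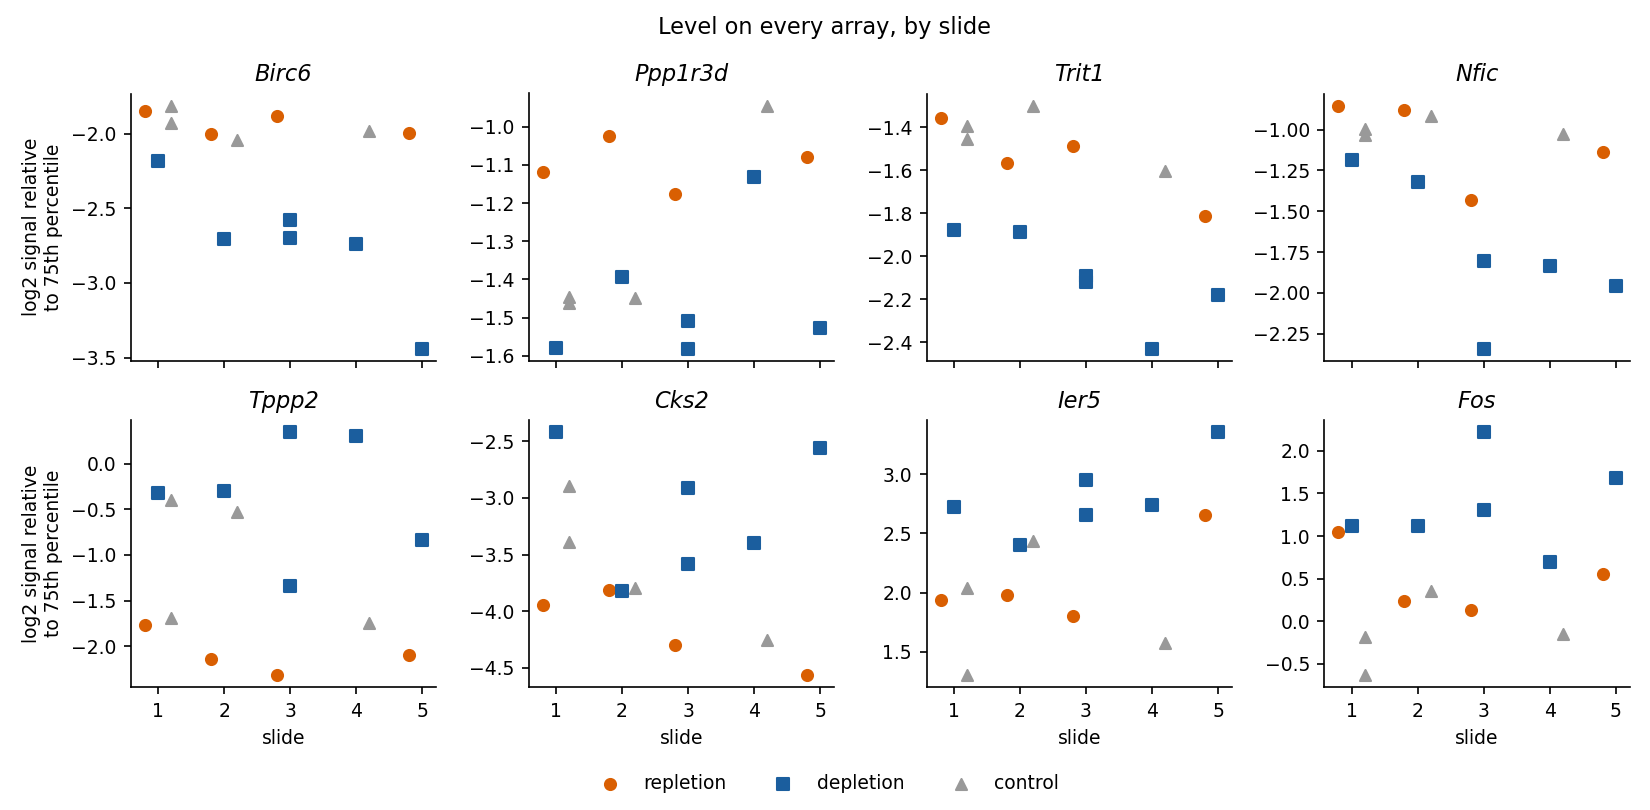
Each panel plots the level of 1 gene (log2 signal relative to the array's 75th percentile, vertical) on every array by slide (horizontal), with repletion in orange circles left of depletion in blue squares and control in grey triangles. In the panels of Birc6, Trit1 and Tppp2 no repletion array lies inside the depletion range, and Cks2 on slide 2 shows both diets at the same level.

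The smallest p of any probe belonged to a second, dimmer probe of Pdgfb, a growth factor subunit, which was singled out after its values were seen. That probe differed by 1.34 ± 0.22 (SE; limma unadjusted p = 0.000171), whereas the brightest Pdgfb probe differed by 0.18. A dimmer probe of the polarity scaffold Mpdz likewise gave 0.72 ± 0.12 (SE) beside 0.05 at the brightest probe. Probes of these 2 genes did not give the same size of difference.

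The vitamin D receptor itself differed by 0.30 ± 0.21 (SE; 95% interval -0.18 to 0.78; limma unadjusted p = 0.19), and by 0.15 with normexp. Vdr levels were -3.96, -4.95, -3.63 and -3.76 under repletion and -5.53, -3.97 and -3.51 (lowest, median, highest) under depletion. The ranges overlapped almost fully. Within slides 1, 2, 3 and 5 the difference was 0.05, 0.57, 0.06 and 0.16, and both low arrays, repletion 2 and depletion 2, lay on slide 2. The retinoid X receptors that pair with it differed by 0.20 ± 0.14 for Rxra and 0.41 ± 0.26 for Rxrg (SE), and Rxrb by 0.07. Within slides 1, 2, 3 and 5 the difference was 0.55, 0.09, -0.08 and 0.14 for Rxra. It was 1.08, 0.30, -0.19 and 0.46 for Rxrg. Rxra differed by 0.12 with normexp. Cyp27b1, the enzyme that makes calcitriol, differed by 0.03 ± 0.11 (SE; 95% interval -0.22 to 0.28). Pdia3, a protein disulphide isomerase also described as a membrane binder of calcitriol, differed by 0.16 ± 0.19 (SE). Cyp24a1 had 2 probes and neither passed the filter on dim signals, so no difference is given for it.

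Of the 20 genes listed for the receptor, its partners and hormone metabolism, 16 were measured. Of these, 14 were higher and 2 lower under repletion, beside 58.6% of all genes higher. None had an unadjusted p under 0.05. The median difference was 0.11, beside 0.03 over all genes. Within slides 1, 2, 3 and 5 it was 0.12, 0.03, -0.01 and 0.26, beside 0.11, 0.01, -0.02 and 0.04 over all genes. The coactivator Ncoa2 differed by 0.36 ± 0.20 (SE), with 1.20 within slide 1, where depletion 1 was far below the other depletion arrays. Without depletion 1 it differed by 0.21. Of the 17 measured vitamin D target genes, 8 were higher and 9 lower, with a median of -0.05 and of 0.05 without depletion 1. Fbp1, the gluconeogenic fructose bisphosphatase, was the member at an unadjusted p under 0.05, with -0.43 ± 0.18 (SE). The binding protein Igfbp3 differed by -0.33 ± 0.19, the NF-kB inhibitor Nfkbia by 0.25 ± 0.13 and the parathyroid hormone receptor Pth1r by 0.18 ± 0.13 (SE), or by 0.05 with normexp for Pth1r. Without depletion 1, Fbp1 differed by -0.28 and Igfbp3 by -0.22.

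Retinoid genes were described because retinoid receptors share the same partner. Of 15 measured, 11 were higher and 4 lower, beside 58.6% of all genes higher. The median was 0.17, and 0.07 without depletion 1. Cyp26b1, which degrades retinoic acid, had levels of -1.82, -2.72, -2.10 and -2.59 under repletion and -2.10, -1.28 and -0.98 (lowest, median, highest) under depletion. Its difference was -0.92 ± 0.26 (SE; limma unadjusted p = 0.00617, adjusted p = 0.933), with -0.84, -1.69, -0.42 and -1.31 within slides 1, 2, 3 and 5. The ranges overlapped only through repletion 1. Aldh1a1, which makes retinoic acid, differed by 0.77 ± 0.46 (SE), with 1.71, -0.45, 0.54 and 0.71 within slides 1, 2, 3 and 5. Rdh10, which makes retinal, differed by 0.21 ± 0.11 (SE) and by 0.09 with normexp.

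Notch signalling, in which ligands on neighbouring cells release the receptor's intracellular part to switch on Hes and Hey genes, controls satellite cell quiescence. Of 23 measured genes 11 were higher and 12 lower, with a median of -0.01. Among the receptors, Notch2 levels were -2.48, -3.34, -2.59 and -2.31 under repletion and -3.50, -3.09 and -2.63 (lowest, median, highest) under depletion. The ranges overlapped through repletion 2. The Notch2 difference was 0.54 ± 0.17 (SE; limma unadjusted p = 0.00935), with 0.86, 0.16, 0.32 and 0.68 within slides 1, 2, 3 and 5. Notch1 differed by -0.15 ± 0.16 (SE; 95% interval -0.51 to 0.21) and Notch3 by 0.18 ± 0.13 (SE). The ligands Dll4 and Jag2 differed by 0.11 and 0.08. Among targets, Hey2 differed by 0.60 ± 0.26 (SE; limma unadjusted p = 0.0487) and was higher within all 4 slides, as were 6.56% of all genes. Hes1 differed by 0.04 ± 0.29 (SE; 95% interval -0.61 to 0.69) and Hey1 by 0.27 ± 0.24 (SE).

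Among regulators of muscle mass, the atrophy ubiquitin ligases Fbxo32 and Trim63 differed by 0.22 (95% interval -0.31 to 0.75) and 0.10 (95% interval -0.77 to 0.98). Trim63 levels of 2.60, 2.31, 2.15 and 3.45 under repletion lay inside or just above the depletion range of 1.53 to 3.29 (median 2.44). Within slides 1, 2, 3 and 5 its difference was -0.66, 0.79, -0.67 and 1.46, so slides gave opposite signs. Without depletion 1, Fbxo32 differed by 0.33 and Trim63 by 0.30. The growth inhibitor Mstn differed by 0.32 ± 0.28 (SE; 95% interval -0.30 to 0.95), and by 0.13 with normexp. Intervals of this width left room for differences of either sign.

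**Figure D3:**
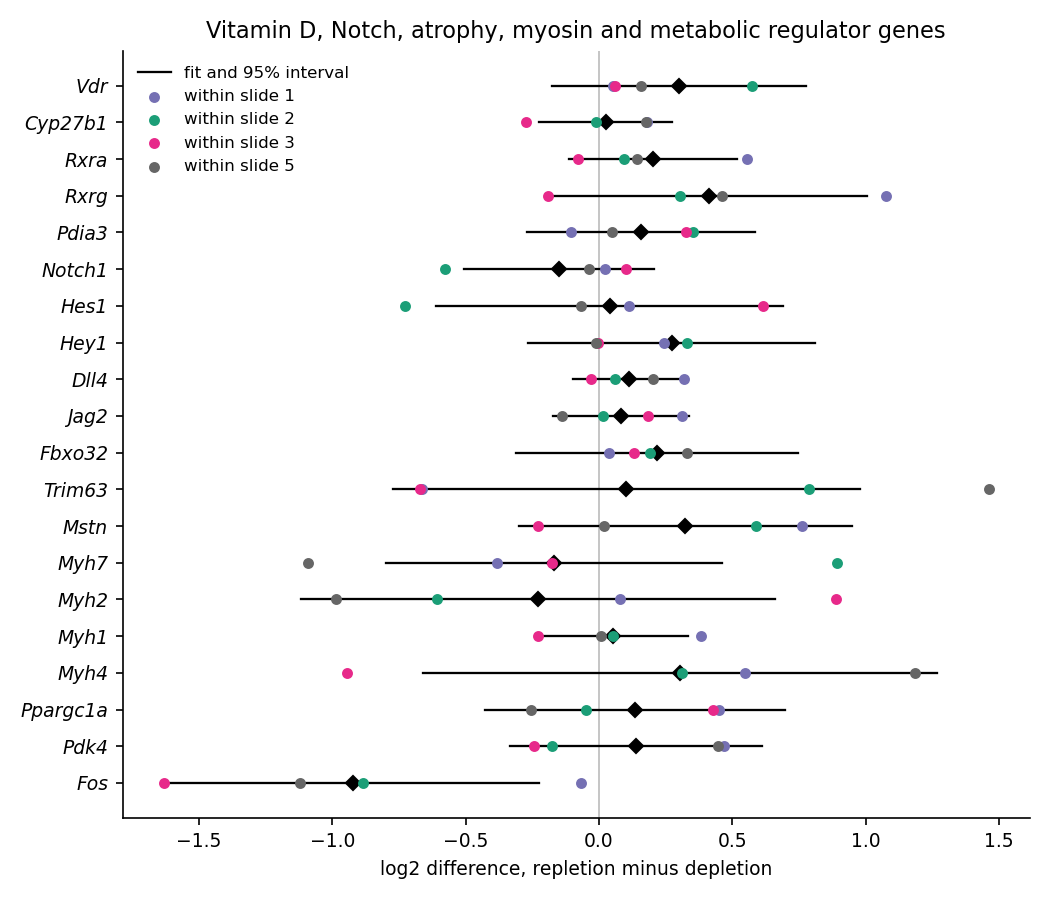
Black diamonds and lines give the fitted difference, repletion minus depletion, with its 95% interval for each gene (log2, horizontal), and coloured points give the differences within slides 1, 2, 3 and 5. The intervals of all genes but Fos include 0, and within-slide points of Trim63, Myh7, Myh2 and Myh4 spread to both sides of 0.

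Myosin heavy chains, which set fibre type, did not separate the diets. The slow myosin Myh7 differed by -0.17 ± 0.28 (SE), with -0.38, 0.89, -0.17 and -1.09 within slides 1, 2, 3 and 5. The fast myosins Myh2, Myh1 and Myh4 differed by -0.23, 0.05 and 0.30, each with an interval across 0. Of 21 slow fibre genes, 20 were lower and 1 higher under repletion, with a median of -0.20, none at an unadjusted p under 0.05. The slide medians were -0.44, 0.83, -0.06 and -0.98, with 17, 5, 14 and 20 of 21 members lower. The list median was -0.12 without depletion 1, -0.42 without repletion 2 and -0.44 to -0.0058 over all fits that left out 1 array, the smallest without depletion 6 or repletion 4. Slow fibre scores, the mean log2 deviation of the members from their mean over all arrays, were -0.07, 0.40, 0.11 and -0.53 in repletion arrays 1 to 4 and ran from -0.25 to 0.57 under depletion. Of this list, sarcolipin (Sln), an inhibitor of the calcium pump, differed by -0.75 ± 0.39 and the stretch-responsive Ankrd2 by -0.72 ± 0.41 (SE). Without depletion 1, Sln differed by -0.57 and Ankrd2 by -0.47. Within slides 1, 2, 3 and 5 the difference of Sln was -1.92, -0.47, -0.14 and -0.14. The fatty acid carrier Cd36 and the pump regulator Pln differed by -0.21 and -0.19.

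Of 16 fast fibre genes, 13 were higher and 3 lower, beside 58.6% of all genes higher. The median was 0.13, with slide medians of 0.44, 0.12, -0.19 and 0.09. The list median was 0.07 without depletion 1 and 0.0093 with that array counted as repletion. The calcium buffer parvalbumin (Pvalb) differed by 0.35 ± 0.22 (SE), but 0.13 without depletion 1, whose level of 6.39 was the lowest of the depletion arrays. The fast myosin binding protein Mybpc2 differed by 0.40 ± 0.29 and the myosin light chain kinase Mylk2 by 0.41 ± 0.33 (SE). Of 11 developmental sarcomere genes, 3 were higher and 8 lower, and the median of -0.35 was -0.12 without depletion 1. The cardiac and embryonic troponin Tnnt2 stood at 0.11, 0.69, 0.60 and 0.76 under repletion, at 0.36 to 1.09 in 5 depletion arrays and at 3.24 in depletion 1. Its difference was -0.60 ± 0.49 (SE) and -0.11 without that array.

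Genes of the neuromuscular junction and of denervated muscle had 9 of 25 higher and 16 lower, with a median of -0.15. The acetylcholine receptor subunit Chrna1 was measured at 0.97, 1.20, 1.98 and 1.57 under repletion and at 1.23, 2.27 and 2.58 (lowest, median, highest of 5 values) under depletion. The value of depletion 3 was left out as an outlier spot. Its difference was -0.87 ± 0.40 (SE; limma unadjusted p = 0.0595), and the ranges overlapped. The voltage-gated and potassium channel list had 19 of 25 higher, beside 58.6% of all genes, with a median of 0.14. Its slide medians were 0.29, 0.08, 0.01 and 0.22. At an unadjusted p under 0.05, 2 members were higher and 1 lower, beside 2.51% and 0.929% of all genes. Abcc9, a subunit of ATP-sensitive potassium channels, differed by 0.37 ± 0.14, the pacemaker channel Hcn2 by 0.49 ± 0.22 and the channel subunit Kcne3 by -0.65 ± 0.26 (SE), all at an unadjusted p under 0.05. With normexp, Hcn2 differed by 0.11 and Kcne3 by -0.38, and with the authors' values by 0.12 and -0.30. The difference of Hcn2 was -0.16 within slide 2. Fits that left out 1 array gave 0.26 to 0.69 for Hcn2 and -0.86 to -0.44 for Kcne3.

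Immediate early genes respond within minutes to contraction, stress or handling. Of 32 measured, 12 were higher and 20 lower, with a median of -0.25, and 5 were lower at an unadjusted p under 0.05 (15.6% of the list, beside 0.929% of all genes). Without depletion 1, 25 were lower. Fos, a subunit of the AP-1 factor, had levels of 1.05, 0.23, 0.13 and 0.56 under repletion and 0.70, 1.21 and 2.22 (lowest, median, highest) under depletion. The ranges overlapped through repletion 1. Its difference was -0.92 ± 0.31 (SE; 95% interval -1.62 to -0.22; limma unadjusted p = 0.0151), and it was -0.07, -0.89, -1.63 and -1.12 within slides 1, 2, 3 and 5. The other members were Ier5, described above, Junb with -0.52 ± 0.20, the antiproliferative Btg2 with -0.52 ± 0.22 and its relative Btg1 with -0.29 ± 0.12 (SE). Btg1 was named after its values were seen. The list median was 0.22 within slide 1, 0.03 within slide 2, -0.34 within slide 3 and -0.37 within slide 5.

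All 77 measured cytosolic ribosomal protein genes were lower under repletion in the fit, with small differences of -0.33 to -0.02 and a median of -0.14. With quantile scaling or with the authors' values 76 were lower, and without depletion 1, 75 were lower with a median of -0.09. At an unadjusted p under 0.05, 2 were lower (2.60% of the list, beside 0.929% of all genes). Rps7, of the small subunit, had levels of 5.35, 5.34, 5.53 and 5.42 under repletion and 5.53, 5.64 and 5.83 (lowest, median, highest) under depletion. The ranges met at 5.53, between repletion 3 and depletion 6. Its difference was -0.23 ± 0.09 (SE; limma unadjusted p = 0.027), with -0.21, -0.26, -0.22 and -0.11 within slides 1, 2, 3 and 5. Rpsa differed by -0.33 ± 0.14 (SE), with 0.19 within slide 2. The slides did not share the list's direction: 76, 71 and 68 members were lower within slides 1, 3 and 5, and 7 within slide 2. Depletion 1 had the highest list score, 0.29, and depletion 2 the lowest depletion score, -0.11, against repletion scores of -0.08 to 0.01. Members of such a list are co-regulated and are not independent measurements.

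Of 36 glycolysis and glycogen genes, 28 were higher, beside 58.6% of all genes. The median was 0.14, with slide medians of 0.44, 0.01, -0.09 and 0.23. The glycerol phosphate dehydrogenase Gpd1 differed by 0.62 ± 0.33 and the pyruvate kinase Pkm by 0.40 ± 0.25 (SE). Without depletion 1 they differed by 0.41 and 0.26, and both were lower within slide 3, by -0.24 and -0.31. Phosphoglycerate mutase Pgam1 ran the other way, with levels of 3.51, 3.50, 3.55 and 3.71 under repletion against 3.65, 3.82 and 3.97 (lowest, median, highest) under depletion. Its ranges overlapped only through repletion 4, and its difference was -0.31 ± 0.12 (SE; limma unadjusted p = 0.028). Of 28 genes for PGC-1, its nuclear receptors and mitochondrial dynamics, 22 were higher, beside 58.6% of all genes. Their median was 0.09, and 0.05 without depletion 1. Ppargc1a, the coactivator PGC-1 alpha, differed by 0.13 ± 0.25 (SE) and by 0.02 without depletion 1, and the receptor Esrrg by 0.37 ± 0.16 (SE) and 0.09 with normexp. The AMP kinase subunit Prkaa2 differed by 0.28 ± 0.15 (SE) and was higher within all 4 slides, as were 6.56% of all genes. The pyruvate dehydrogenase kinase Pdk4 differed by 0.14 ± 0.21 (SE).

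Of 17 clock genes, 10 were higher and 7 lower, near the 58.6% of all genes that were higher. With normexp 9 were higher and 8 lower. The list median was 0.17, with slide medians of 0.21, 0.13, 0.08 and 0.19, beside 0.11, 0.01, -0.02 and 0.04 over all genes. Besides Nr1d2, its paralog Nr1d1 differed by 0.58 ± 0.33, Clock by 0.24 ± 0.13 and Bhlhe41, a repressor of the clock, by 0.38 ± 0.24 (SE). Nr1d1, Nr1d2 and Clock were higher within all 4 slides, as were 6.56% of all genes.

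**Figure D4:**
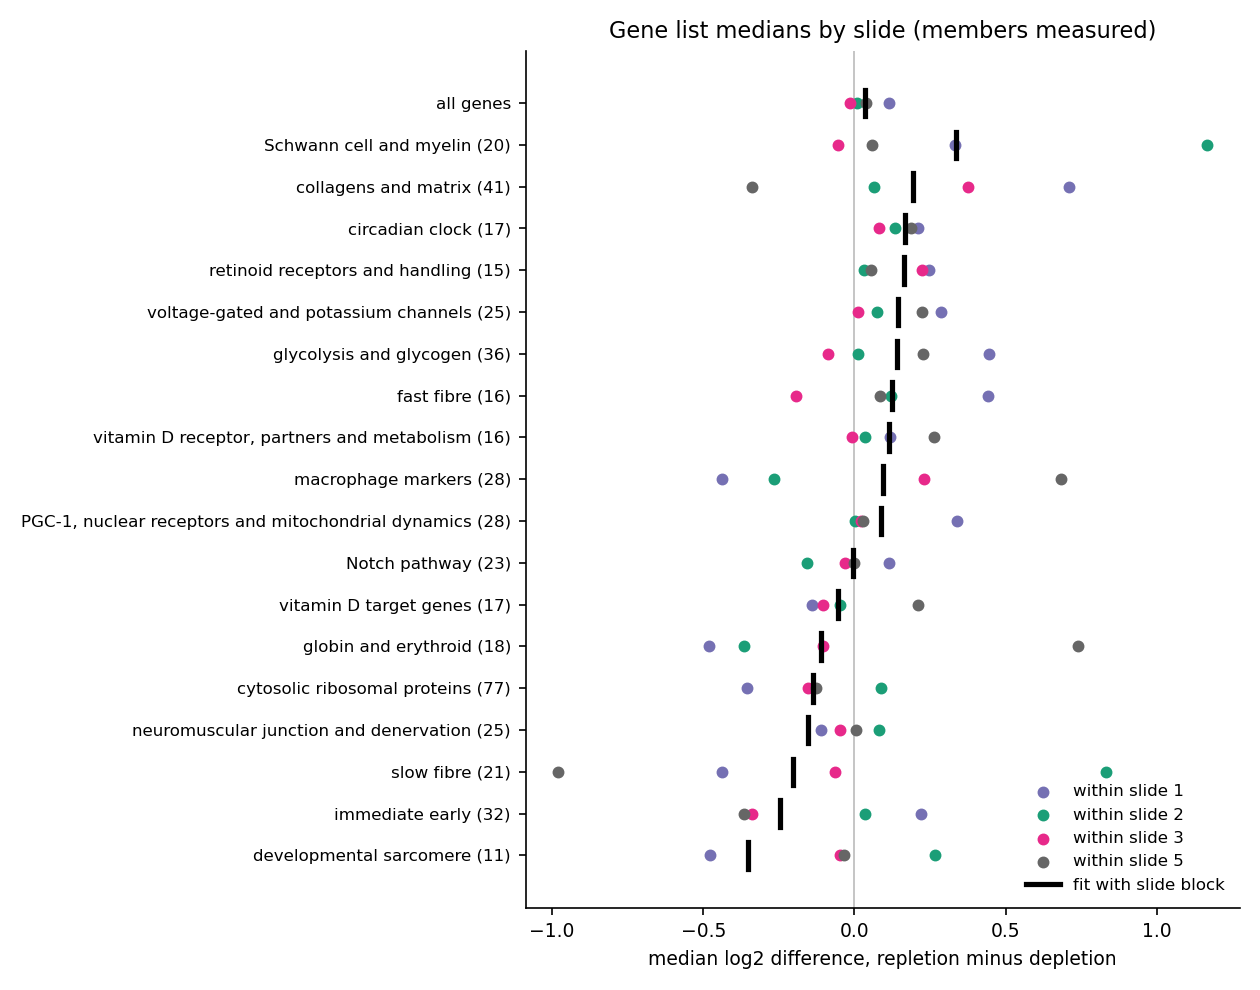
Each line is a gene list with its number of measured members, plotted by the median log2 difference, repletion minus depletion (horizontal). Black bars give the fit with slide as a block and coloured points the medians within slides 1, 2, 3 and 5. Slide medians lie on 1 side of 0 only for the retinoid, PGC-1, channel and clock lists. Every other list, like all genes, has slide medians on both sides of 0.

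Markers of other cells in the muscle were read beside these lists. In whole muscle, fewer cells of a type and less RNA per cell cannot be told apart. Of 20 Schwann cell and myelin genes 17 were higher, beside 58.6% of all genes. The median was 0.34, and repletion 2 carried much of it. The myelin basic protein gene Mbp was measured at -0.09, 3.32, -0.88 and -0.27 under repletion and at -1.76, -0.71 and -0.40 (lowest, median, highest) under depletion. Repletion 2 stood far above the other arrays, and the ranges overlapped through repletion 3. The summed level of the list was 33.9 in repletion 2 and 5.72 to 6.68 in the other repletion arrays, against 4.58 to 6.20 under depletion. Without repletion 2, 13 of 20 were higher and the median was 0.13. Periaxin (Prx) differed by 0.88 ± 0.32 and Ncmap, another myelin membrane protein, by 0.72 ± 0.26 (SE), with within-slide values of 2.29 and 1.29 on slide 2. With normexp the fitted differences were 0.53 for Prx and 0.30 for Ncmap. Mbp differed by 1.5 ± 0.74 (SE), with 4.10 on slide 2. The listed Drp2, Cdh19 and Ugt8 were not measured. The part of Schwann cells in the other differences was not tested.

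Macrophage markers had 18 of 28 higher, beside 58.6% of all genes. Their median was 0.10, or 0.16 without depletion 1 and 0.01 with normexp. The slide medians were -0.44, -0.26, 0.23 and 0.68. The summed level of the macrophage markers ran from 47.9 to 52.6 under repletion, inside the range of 28.7 to 86.5 under depletion. The listed gene Mpeg1 was not measured. Trem2, Ms4a7, Itgax and Csf1r differed by 0.30, 0.19, -0.53 and -0.17. With normexp Ms4a7 differed by 0.06 and Itgax by -0.17. Globin and erythroid genes had 7 of 18 higher and 11 lower, with a median of -0.11, or -0.07 without depletion 1, and slide medians of -0.48, -0.36, -0.10 and 0.74. Their summed level was 113 to 198 under repletion, inside the range of 94.7 to 318 under depletion. The part of macrophages and blood in the other lists was not tested.

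Collagen and matrix genes had 29 of 41 higher and 12 lower, beside 58.6% of all genes higher. Their median was 0.19, but without depletion 1 19 were higher and the median was -0.01. Within slides 1, 2, 3 and 5 the medians were 0.71, 0.07, 0.37 and -0.34. Decorin (Dcn), a small proteoglycan, differed by 0.37 ± 0.14 (SE; limma unadjusted p = 0.0287), with 0.26, -0.03, 0.79 and 0.30 within slides 1, 2, 3 and 5. Its relative Fmod differed by 0.63 ± 0.32 (SE), from 5 depletion values because 1 was an outlier spot, and by 0.04 with the authors' values. Over the 35 lists not described, list medians ran from -0.15 to 0.17. Of their 994 members, 520 were higher (52.3%, beside 58.6% of all genes) and 474 lower. At an unadjusted p under 0.05, 16 were higher (1.61%, beside 2.51% of all genes) and 10 lower (1.01%, beside 0.929%).

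**Figure D5:**
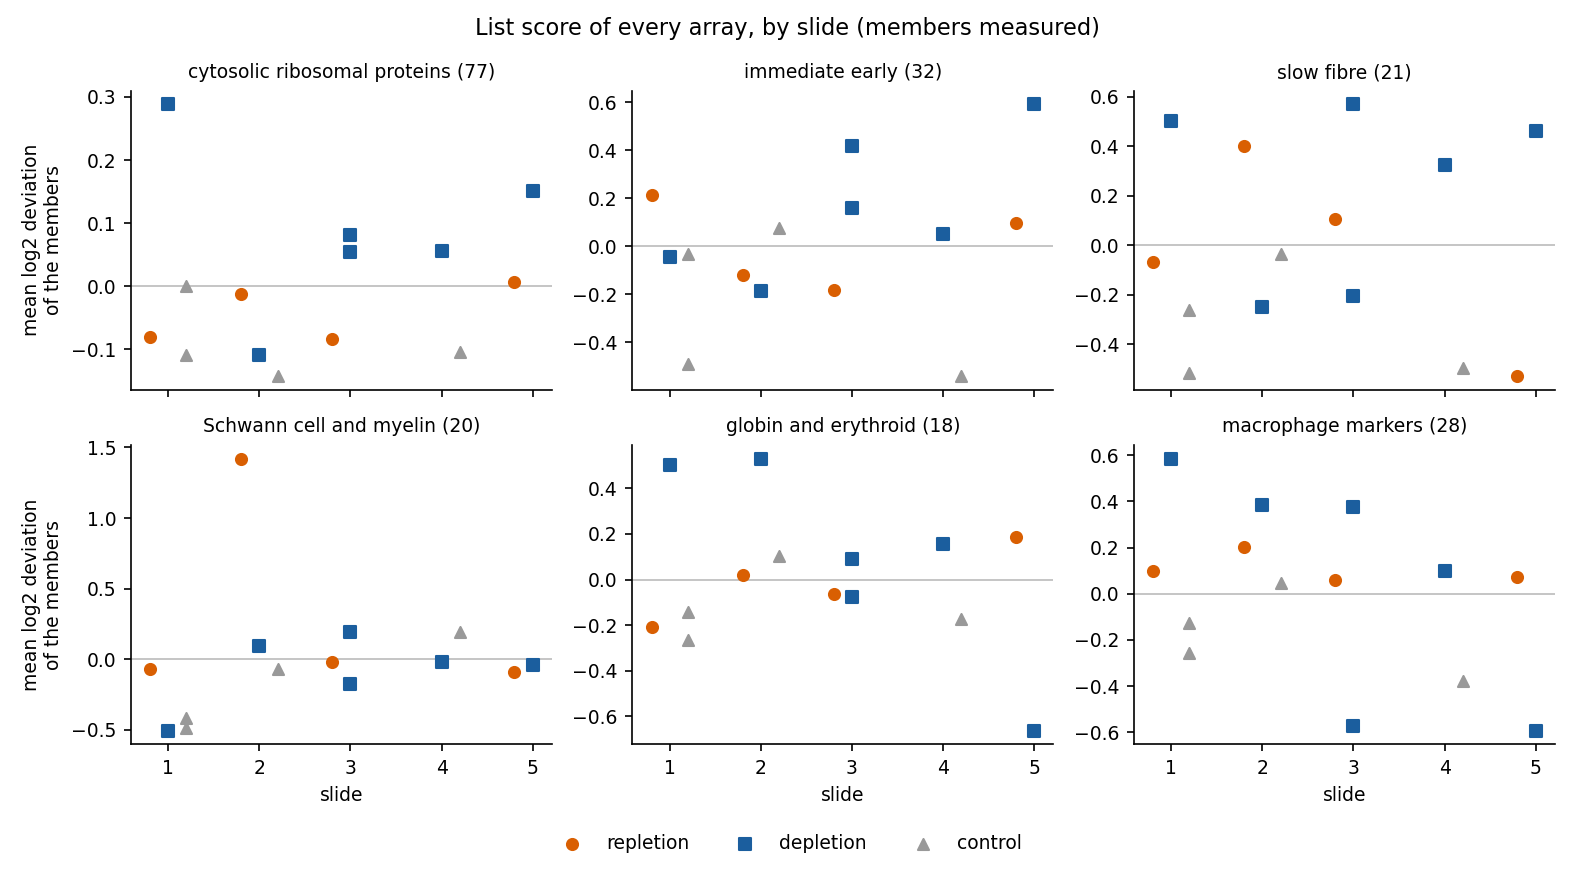
Each panel plots the score of 1 gene list (mean log2 deviation of its members from their mean over all arrays, vertical) on every array by slide (horizontal), repletion in orange circles left of depletion in blue squares and control in grey triangles. Repletion 2 stands at 1.42 in the Schwann cell panel, and depletion 1 has the highest ribosomal protein score, 0.29.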

How the data were processed

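Per the file headers, the scanner files give the intensity of each spot as Agilent Feature Extraction 11.5.1.1 (protocol GE1_1105_Oct12) wrote it, with background subtracted and trends removed inside the array. The authors also deposited a log2 table of 26902 probes, normalized between arrays and used only as an alternative; per the submitters' processing notes limma was used. Its column medians ran from 8.418 to 8.491, and the sources used here do not state its filter or background correction.

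Of 30367 probes, 18438 were named by accession, 3172 by symbol and 422 by synonym in a RefSeq table (GRCr8), 1813 kept the file's name and 6522 had none. Outlier spots (0.669% to 1.05% per array) were left out and spots of a probe averaged. A probe was kept if 4 of the 14 arrays or more showed it well above background and each group had 2 values, which left 26387 probes of 17432 genes, a gene being represented by its brightest probe. limma 3.58.1 in R 4.3.3 fitted diet with slide as a block (7 residual degrees of freedom) and was tested on simulated data. The number of arrays limits the precision.

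Named were the 10 genes with the smallest p per direction, predicted loci (LOC or RGD numbers) left out, none of which passed, the 4 members of each described list with the smallest p, and 21 chosen genes; 2 members so chosen are not reported here. Members, lists and genes were chosen with earlier results of these data known. The alternatives changed the block, arrays, background correction, scaling, filter, probe choice and array weights. Arrays with the same replicate number deviated together for numbers 1 to 3 (correlations 0.379, 0.717 and 0.491), which are also the numbers that share a slide, and not for number 4 (-0.356).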

Additional observations from a re-analysis of the deposited data

Results flagged for a closer look

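Of 357 groups of arrays tested, 20 held 1 array whose gap to the nearest other exceeded Dixon's limit, and chance marks about 1 in 20 groups. Depletion 1, whose labels conflict, accounted for 5 of them. Its level was -3.99 for Ncoa2, with the nearest other depletion array at -3.30, and 6.39 for Pvalb, with the nearest at 7.37. It was 3.24 for Tnnt2 (nearest 1.09), -6.60 for Erbb3 (nearest -4.61) and -5.24 for Kcne3 (nearest -5.68).

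Repletion 2 stood apart in 3 list scores. Its Schwann cell and myelin score was 1.42 (nearest repletion array -0.02), its developmental sarcomere score 0.39 (nearest -0.27) and its vitamin D target score 0.24 (nearest -0.07). Among other repletion arrays, repletion 1 had Ppargc1a at -3.16 (nearest -3.55) and repletion 3 had Gpd1 at 3.61 (nearest 4.26). Repletion 4 had Rpl13 at 6.35 (nearest 6.20).

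Among other depletion arrays, depletion 2 had Nr1d2 at -3.42 (nearest -3.83) and Chrna1 at 1.23 (nearest 2.19). Depletion 3 had Rxrg at 2.99 (nearest 2.32) and depletion 5 had Calca at -9.63 (nearest -7.12). Among control arrays, control 4 had Ppp1r3d at -0.94 (nearest -1.45) and Mbp at 0.37 (nearest -2.02). Control 1 had Hey2 at -3.70 (nearest -2.97). Control 3 had Ankrd2 at 5.67 (nearest 4.39) and a PGC-1 list score of 0.16 (nearest 0.04).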

How the results depend on the processing

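No alternative called any probe. Counts of probes at an unadjusted p under 0.05 (662 higher, 255 lower) moved by over 1.5 times with array weights (367 and 151), without the slide block (273 and 107) and with normexp (164 and 159); with depletion 1 counted as repletion 431 were higher, with the authors' values 440 were lower, and the mean of a gene's probes, counted over genes, gave 161 lower. With the replicate number as a block instead of the slide, 337 were higher and 122 lower; the numbers share only a number. Leaving out 1 array gave 335 (without repletion 1) to 1416 (without repletion 3) higher and 220 (without depletion 1) to 620 (without depletion 2) lower. Of 101 named genes, 84 kept their sign in all 28 fits and none passed in any. The sign turned under the replicate block for Dll4 (-0.066), Ppard (-0.11), Fmod (-0.17), Cyp27b1 (-0.028), Hey1 (-0.41) and Myh2 (0.22); without the slide block for Fmod (-0.075) and Cyp27b1 (-0.014); with depletion 1 counted as repletion for Casq1 (-0.039), Tnnt2 (0.14), Hes1 (-0.013), Jag2 (-0.0051), Myh1 (-0.022) and Ppargc1a (-0.034); with normexp for Mmp9 (-0.015) and Gata1 (-0.0019); with the mean of probes for Dll4 (-0.0097); with the authors' values for Myh1 (-0.014); and on the 10 arrays alone for Cyp27b1 (-0.0052). Leaving out 1 array gave -0.041 to 0.15 for Cyp27b1, -0.20 to 0.22 for Hes1, -0.28 to 0.43 for Trim63, -0.42 to 0.093 for Myh7, -0.042 to 0.17 for Myh1 and -0.077 to 0.30 for Pdk4. The cause was not tested. Of 53 list medians, 27 kept their sign; of the described lists Notch, vitamin D targets, macrophage and collagens did not. Leaving out depletion 5 and leaving out control 4 gave the same fit, as did leaving out depletion 6 and repletion 4, since each pair shares a slide with no other array. Dim genes such as Esrrb, Il21 and Btnl3 are limited by signal over background.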
